A study of Homo sapiens with 60 samples.

Results

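The glycolysis and hypoxia genes described here are 39 named genes of the 38342 gene rows in a table of RNA levels from MDA-MB-231 cells. They were chosen by name and fall into 17 glycolytic enzymes, 4 transporters of glucose or lactate, 4 kinases that set the flow through phosphofructokinase or pyruvate dehydrogenase, 3 genes of the oxygen sensor (EGLN1, EGLN3 and HIF1A) and 11 other known targets of hypoxia-inducible factor (HIF). MDA-MB-231 is an established human triple-negative breast cancer line. Cells received the solvent DMSO (6 libraries at each time) or the compound BAY2506856 at 100, 300 or 1000 nM (3 libraries of each dose at each time), and poly(A) RNA was sequenced after 1, 3, 6 or 24 h, which gives 60 libraries in 16 groups. No target of the compound and no oxygen level are in the labels, and the design text of the series names 24 h only. Nothing says that libraries of 1 group came from separate cultures, so the p-values measure the spread between these libraries, which may be technical.

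Glycolysis splits glucose into pyruvate in the cytosol, and lactate dehydrogenase turns pyruvate into lactate when it does not enter the mitochondria. HIF-1, a dimer of HIF1A and ARNT, switches on many of these genes in low oxygen. When oxygen is present, prolyl hydroxylases (EGLN1 and EGLN3 among them) mark the HIF1A protein for destruction through VHL, so HIF activity is set mostly by protein stability and cannot be read from HIF1A RNA. HIF binds DNA at the short core ACGTG or GCGTG.

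Depth, from whole reads recovered out of the values, ran between 0.475 and 86.5 M (median 11.2 M), and 3 libraries held under 2 M. The values split the libraries into 3 types on which the labels are silent, told apart by the mean level of some pseudogenes and by MT-ND6, a mitochondrial message. The first type holds 41 libraries, the second 13 from all times, and the third 6, all DMSO at 1 or 3 h. After 24 h the second type held replicates 1 and 3 of the 1000 nM group, replicate 2 of the 300 nM group and replicate 2 of the DMSO group. This DMSO library is also the shallowest, so values within the first type are given beside many of the 24 h results. At 1000 nM replicates 1 and 3 held 2.27 and 2.58 M reads, against 31.8 M in replicate 2. Values within the first type at 1000 nM and 24 h therefore rest on 1 library, replicate 2. Summed levels of leukocyte, fibroblast and endothelial markers reached at most 5.18, 9.00 and 1.24 FPKM. VIM, a mesenchymal marker of this line, had a median of 470 FPKM. Markers listed as absent or low in this line summed to 13.3 to 35.4 FPKM. Among them ESR1, the estrogen receptor, was at 0 in 59 libraries, and PGR and FOXA1 had medians of 0. EPCAM (4.43 to 16.3 FPKM), GATA3 (1.34 to 5.58), MUC1 (1.39 to 21.2) and ERBB3 (0.178 to 1.81) were instead above 0 in every library. CDH1 (at most 1.09 FPKM) was at 0 in 1 library.

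In the 24 DMSO libraries the members spanned a wide range of levels per transcript length, given as FPKM (fragments per kilobase per M reads). GAPDH, the enzyme that oxidises glyceraldehyde 3-phosphate, ranked first at 896 ± 106 FPKM (SD, n = 24), followed by the enolase ENO1 at 762 ± 81.2 and the pyruvate kinase PKM at 336 ± 31.1 FPKM. LDHA, which favours lactate formation, came next at 325 ± 45.9 FPKM, and PKM and LDHA did not differ beyond their spread. Among isozymes, HK1 (40.6 ± 2.72 FPKM) stood above HK2 (10.5 ± 0.992 FPKM), PFKP (53.7 ± 9.68 FPKM) above PFKL and PFKM, and ALDOA (118 ± 20.8 FPKM) above ALDOC (0.967 ± 0.265 FPKM). The main glucose transporter was SLC2A1 (GLUT1) at 92.4 ± 16.3 FPKM, against 4.34 ± 0.825 FPKM for SLC2A3 (GLUT3). The lactate exporter SLC16A3 (MCT4) stood at 28.2 ± 8.97 FPKM, whereas SLC16A1 (MCT1) did not exceed 0.339 FPKM in any of the 60 libraries and was the 1 member left out of the tests. HIF1A was abundant at 83.9 ± 15.1 FPKM, while the classical hypoxia markers CA9 and ANKRD37 averaged 1.08 ± 0.349 and 1.06 ± 0.316 FPKM.

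Rows named as pseudogenes of several members also hold reads, which may belong to the members, so the levels of these members are uncertain. The rows were matched by name alone, and the sharing of reads was not tested. Pseudogene rows held 30.6 to 35.4% of the reads of BNIP3 and its copies, 26.9 to 31.8% for TPI1, 20.4 to 24.5% for LDHA and 16.9 to 20.6% for GAPDH, over all libraries.

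At 1 and 3 h no member passed the test at any dose. Limma (Benjamini-Hochberg adjustment over 15866 genes, threshold 0.05) called 0 of the 38 members at 1 h, where 0% of all genes were called at 1000, 300 and 100 nM alike. At an unadjusted p under 0.05, the members numbered 3, 1 and 5 after 1 h at 100, 300 and 1000 nM, beside 5.1%, 1.21% and 10.3% of all genes. After 3 h it called 0 members again, with 0.0693% of all genes called at 100 nM, 0.126% at 300 nM and 0.132% at 1000 nM (0.0252% higher at each of 300 and 1000 nM, 0.101% and 0.107% lower). Here 2, 3 and 3 members had an unadjusted p under 0.05, beside 5.88%, 5.88% and 7.41% of all genes. Voom, run on the recovered reads, also called 0 members at both times, whereas limma with weights per library called 18 at 1000 nM after 1 h (40.2% of all genes), and 13, 15 and 17 at 100, 300 and 1000 nM after 3 h (23.3%, 19.3% and 24% of all genes). SLC2A3 was the highest member at 1000 nM after 3 h, with a log2 change of 0.25 ± 0.07 (SE) that missed the threshold (adjusted p = 0.335, limma).

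**Figure D1:**
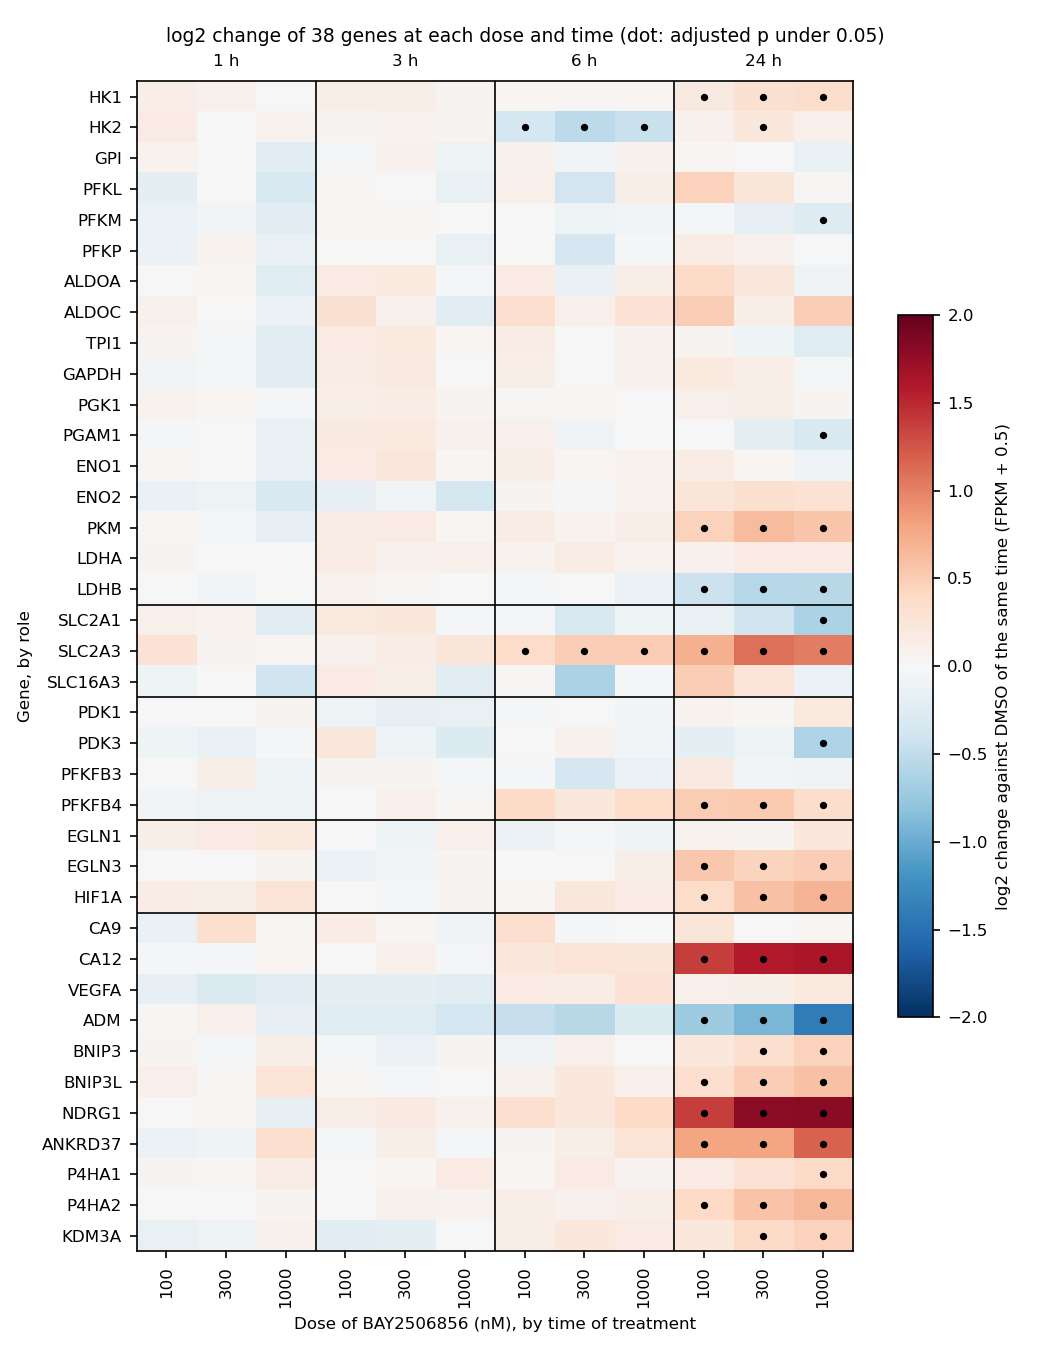
log2 change (FPKM + 0.5) of each of the 38 tested genes (rows, grouped by role with lines between roles) against DMSO of the same time, for 100, 300 and 1000 nM (columns) at 1, 3, 6 and 24 h; red is higher and blue lower than in DMSO, and a dot marks an adjusted p under 0.05. There are no dots at 1 or 3 h, dots for HK2 and SLC2A3 alone at 6 h, and 13, 16 and 20 dots at 100, 300 and 1000 nM at 24 h.

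After 6 h exactly 2 members passed the test, and they were the same at all doses: SLC2A3 rose and HK2 fell. This compares with 0.863% of all genes called at 100 nM, 1.67% at 300 nM and 2.01% at 1000 nM. By direction, 0.208%, 0.561% and 0.706% of all genes were higher and 0.655%, 1.11% and 1.3% lower at 100, 300 and 1000 nM. The comparisons of the 3 doses share the 6 DMSO libraries.

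SLC2A3 encodes GLUT3, a glucose transporter with high affinity for glucose. At 6 h it measured 6.16, 6.75 and 6.18 FPKM at 1000 nM, against 3.77, 4.42 and 4.86 FPKM in DMSO (lowest, median, highest of 6). Every treated library stood above every DMSO library. A change in RNA per cell and a change in the share of cells that express a gene cannot be told apart in such bulk samples. The log2 change was 0.37 ± 0.07 at 100 nM, 0.49 ± 0.07 at 300 nM and 0.51 ± 0.07 at 1000 nM (SE; adjusted p = 0.00260, 1.06e-05 and 5.11e-06, limma). The rise at 100 nM lost its call without replicate 2 of that group (0.31, adjusted p = 0.138, limma).

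HK2, the hexokinase isozyme that many tumours induce, moved the other way. At 6 h it measured 8.18, 8.06 and 8.01 FPKM at 1000 nM, against 10.7, 11.1 and 11.8 FPKM in DMSO (lowest, median, highest). The groups did not overlap at any dose. HK2 changed on the log2 scale by -0.35 ± 0.07 at 100 nM, -0.53 ± 0.07 at 300 nM and -0.45 ± 0.07 at 1000 nM (SE; adjusted p = 0.00114, 1.36e-07 and 5.26e-06, limma). HK1, the isozyme that most tissues share, was not called at this time, and the ratio of HK1 to HK2 was 5.17 to 5.57 at 1000 nM against 3.25 to 4.01 in DMSO.

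After 24 h between 13 and 20 members passed the test, depending on the dose. At 1000 nM 20 of 38 were called, 14 higher and 6 lower, where 34.7% of all genes were called, 19.1% higher and 15.6% lower. The 11 HIF targets outside glycolysis held 8 of the rises and 1 of the falls, with a median log2 change of 0.47. The 17 glycolytic enzymes held 2 rises and 3 falls, with a median log2 change of -0.00 beside 0.03 over all genes tested. At 300 nM 14 members rose and 2 fell (30.7% of all genes called, 16.5% higher and 14.2% lower), and at 100 nM 11 rose and 2 fell (19.7% of all genes called, 10.5% higher and 9.2% lower).

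**Figure D2:**
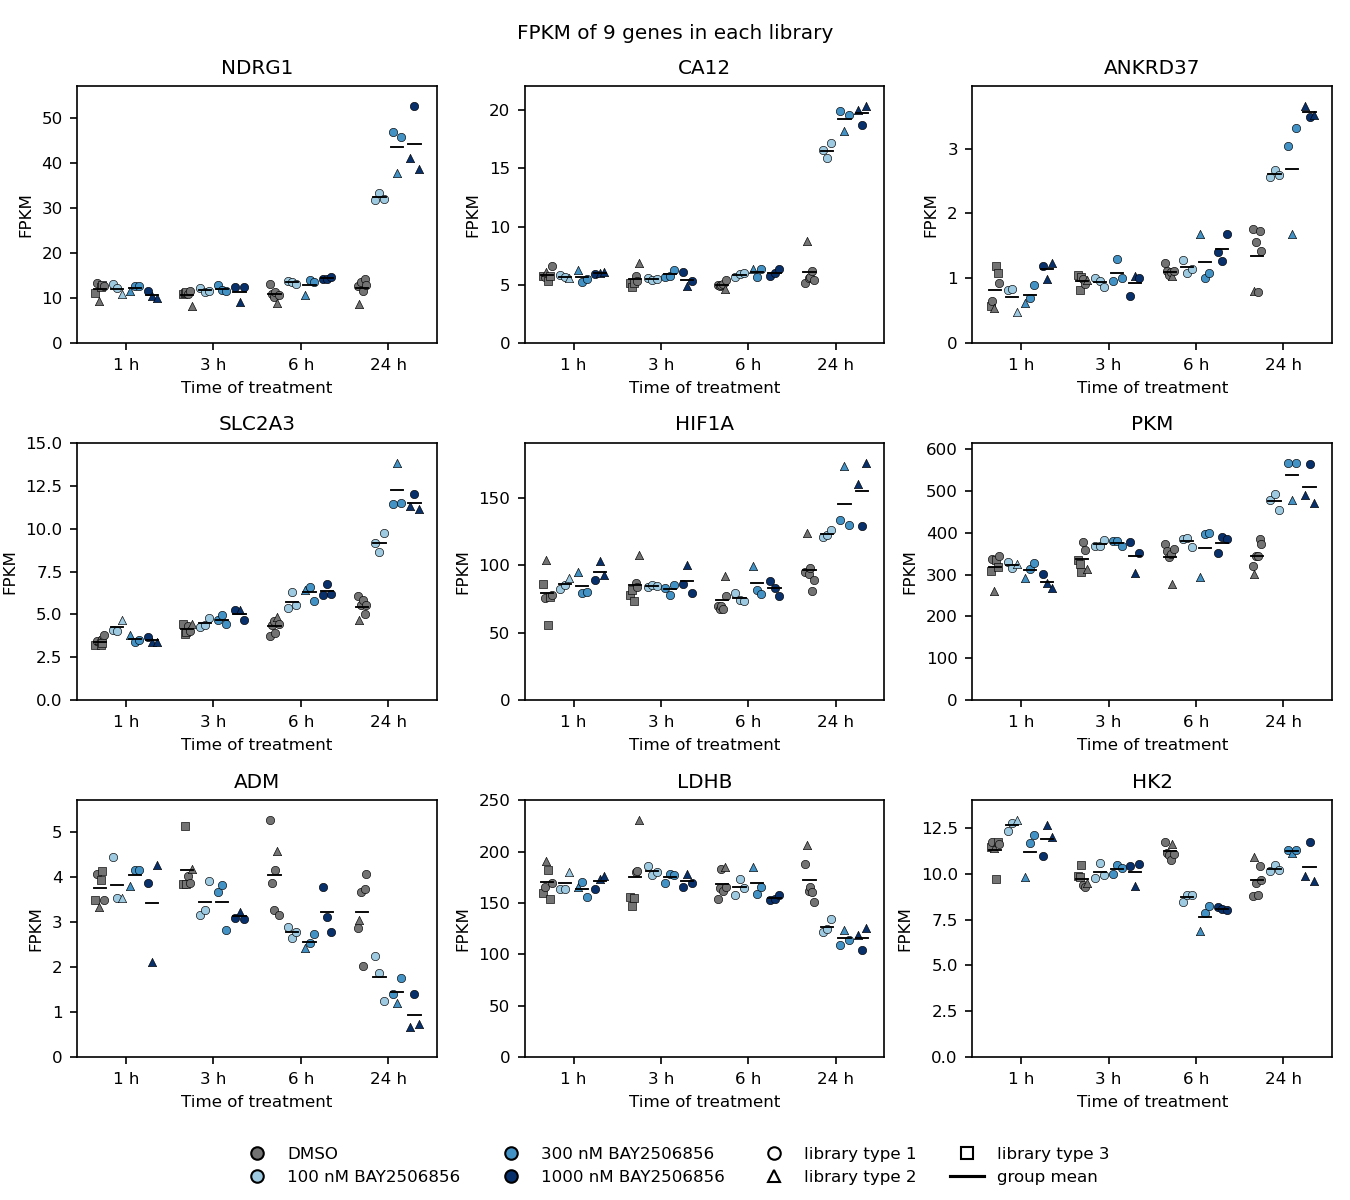
FPKM (vertical axes, from 0) of 9 genes in each of the 60 libraries by time of treatment, with DMSO in grey and 100, 300 and 1000 nM in light to dark blue; symbols give the library type and lines the group means. NDRG1, CA12, SLC2A3 and PKM at 24 h stand above DMSO in every treated library, LDHB stands below it, and HK2 is below DMSO at 6 h.

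Among the glycolytic enzymes 5 of 17 passed the test at 1000 nM. PKM, the pyruvate kinase that forms pyruvate and ATP, rose at 24 h to 491, 565 and 471 FPKM at 1000 nM, against 302, 345 and 386 FPKM in DMSO (lowest, median, highest). No treated library overlapped with DMSO at any dose. The log2 change of PKM was 0.46 ± 0.09 at 100 nM, 0.64 ± 0.09 at 300 nM and 0.56 ± 0.09 at 1000 nM (SE; adjusted p = 0.000106, 1.22e-07 and 1.68e-06, limma), and 0.67 at 1000 nM within the first library type.

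LDHB, the lactate dehydrogenase subunit that favours the turn of lactate back to pyruvate, fell at 24 h. It measured 119, 105 and 125 FPKM at 1000 nM, against 151, 164 and 206 FPKM in DMSO (lowest, median, highest). The groups were again separate at all doses. Its log2 change was -0.43 ± 0.09 at 100 nM, -0.56 ± 0.09 at 300 nM and -0.56 ± 0.09 at 1000 nM (SE; adjusted p = 0.000236, 1.24e-06 and 1.17e-06, limma), and -0.66 at 1000 nM within the first type. LDHA, the partner subunit, reached 434, 423 and 444 FPKM at 1000 nM, against 356, 394 and 415 FPKM in DMSO, without overlap but short of the threshold (0.16 ± 0.07 SE, adjusted p = 0.0615, limma). Its call depended on the fit: with terms for the library types the value was 0.14 and passed (adjusted p = 0.0115, limma). The LDHB to LDHA ratio within a library was 0.248 to 0.282 at 1000 nM, 0.265 to 0.270 at 300 nM and 0.302 to 0.315 at 100 nM, against 0.408 to 0.497 in DMSO.

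HK1, which feeds glucose into the pathway, rose by a smaller step, to 49.2, 51.2 and 46.3 FPKM at 1000 nM against 36.9 to 39.5 FPKM in DMSO. Its log2 change was 0.35 ± 0.06 (SE, adjusted p = 2.49e-06, limma), and 0.42 within the first type. HK2 was back near its DMSO level at 24 h, at 9.86, 11.7 and 9.58 FPKM at 1000 nM, against 8.78, 9.57 and 10.9 FPKM in DMSO (0.10 ± 0.07 SE, adjusted p = 0.273, limma). At 300 nM HK2 was called higher (0.21 ± 0.07 SE, adjusted p = 0.0118, limma), and within the first type also at 1000 nM (0.30, adjusted p = 0.000258).

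PGAM1 (phosphoglycerate mutase) and PFKM (the muscle form of phosphofructokinase) were called lower, but their groups overlapped. PGAM1 measured 179, 213 and 184 FPKM at 1000 nM, against 204, 238 and 263 FPKM in DMSO (lowest, median, highest), with a log2 change of -0.30 ± 0.10 (SE, adjusted p = 0.0150, limma). PFKM measured 5.80, 6.80 and 6.29 FPKM at 1000 nM, against 5.95, 7.94 and 8.30 FPKM in DMSO, with -0.26 ± 0.09 (SE, adjusted p = 0.0221, limma). In each 24 h group that holds any, the libraries of the second type were the lowest for both genes, and both lost the call without replicate 1 (-0.25 and -0.21) or replicate 3 (-0.27 and -0.26) of the 1000 nM group. Within the first type PGAM1 was not called (-0.19, adjusted p = 0.0510) and PFKM was (-0.22, adjusted p = 0.0344).

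The other 12 enzymes did not pass at 1000 nM, although ENO2 did within the first type (0.33). With 1 library left out, calls were gained by ALDOC without replicate 3 of the 1000 nM group (0.71) or DMSO replicate 6 (0.57), by TPI1 without replicate 2 of the 1000 nM group (-0.37) or DMSO replicate 2 (-0.29), and by LDHA without DMSO replicate 2 (0.19). GAPDH measured 879, 1118 and 815 FPKM at 1000 nM, against 809, 982 and 1032 FPKM in DMSO (lowest, median, highest), a log2 change of -0.02 ± 0.12 (SE, adjusted p = 0.912, limma). ENO1 stood at -0.09 ± 0.10, TPI1 at -0.25 ± 0.11, PGK1 at 0.06 ± 0.06, GPI at -0.13 ± 0.12 and ALDOA at -0.07 ± 0.19. The brain forms ENO2 and ALDOC were at 0.29 ± 0.14 and 0.49 ± 0.22, and PFKL and PFKP at 0.02 ± 0.24 and -0.00 ± 0.16 (all SE, log2, not past the threshold). For GAPDH the sign turned with terms for the library types (0.17, adjusted p = 0.00894, limma) and within the first type (0.20, adjusted p = 0.0164), where 1 library stands for 1000 nM and is assumed to vary like the other groups. In sum, the 17 enzymes took 0.934 to 1.06% of all FPKM at 1000 nM and 24 h, against 0.940 to 1.04% in DMSO. The lowest library of both groups is of the second type. Within the first type the share was 0.985 to 1.04% in DMSO and 1.06% in the single 1000 nM library. It was 1.06 and 1.08% at 300 nM and 1.05 to 1.07% at 100 nM, all above DMSO. This difference was not tested.

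Of the glucose transporters, SLC2A3 was called higher at every dose, while SLC2A1 was called lower at 1000 nM alone and less firmly. SLC2A3 rose 2.02-fold at 24 h, to 11.3, 12.0 and 11.2 FPKM at 1000 nM, against 4.70, 5.56 and 6.05 FPKM in DMSO (lowest, median, highest). All treated libraries of all doses lay above all DMSO libraries. The log2 change was 0.70 ± 0.07 at 100 nM, 1.10 ± 0.07 at 300 nM and 1.02 ± 0.07 at 1000 nM (SE; adjusted p = 3.51e-10, 6.27e-17 and 7.88e-16, limma), and 1.04 at 1000 nM within the first type. SLC2A14, a near-identical neighbour of SLC2A3, rose by 1.18 ± 0.16 at 1000 nM, and reads of the 2 genes may not be told apart.

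SLC2A1 measured 55.9, 81.5 and 47.1 FPKM at 1000 nM, against 68.3, 96.1 and 110 FPKM in DMSO (lowest, median, highest). The 2 low treated libraries and the lowest DMSO library are of the second type, and the groups overlap. The fitted log2 change was -0.63 ± 0.18 (SE, adjusted p = 0.00430, limma), -0.35 with terms for the types and -0.27 within the first type (adjusted p = 0.0356), and -0.46 with the call lost without replicate 3 of the 1000 nM group (adjusted p = 0.0862). At 300 and 100 nM SLC2A1 did not pass. The ratio of SLC2A3 to SLC2A1 was 0.148 to 0.237 at 1000 nM, against 0.0455 to 0.0687 in DMSO. For the lactate exporter SLC16A3 the libraries spread from 12.0 to 38.4 FPKM at 1000 nM and from 11.9 to 31.5 FPKM in DMSO, too wide for a call (-0.12 ± 0.33 SE, adjusted p = 0.813, limma).

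**Figure D3:**
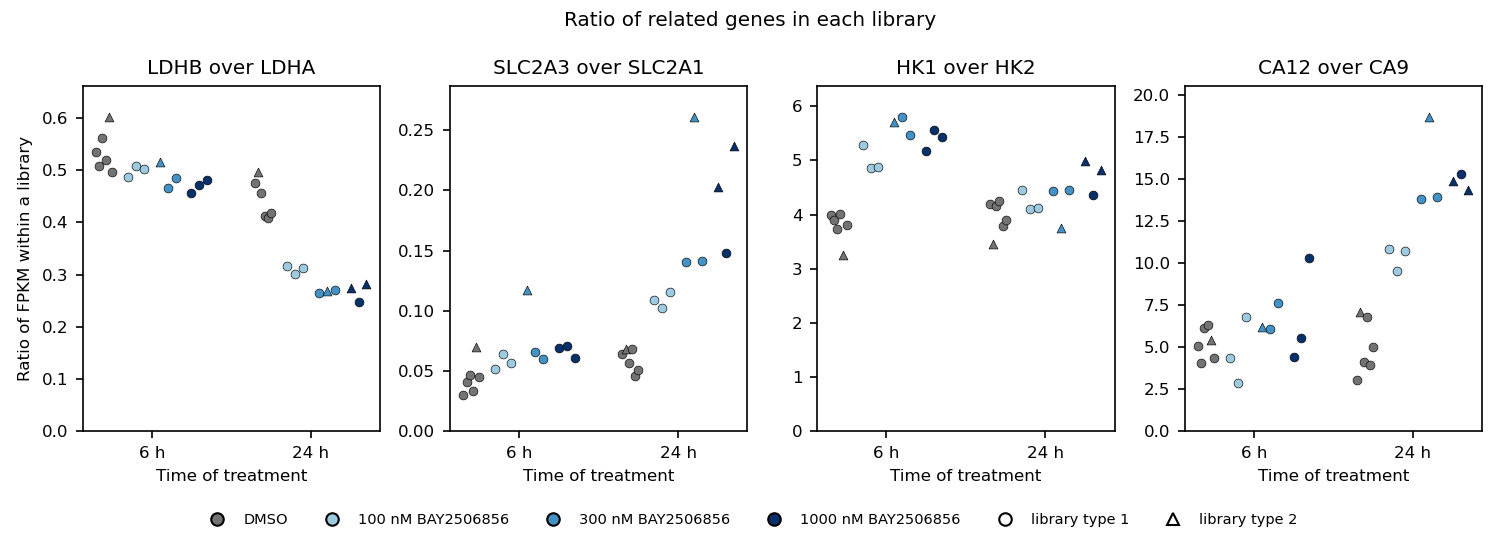
Ratio of FPKM of related genes within each library (vertical axes, from 0) at 6 and 24 h, for DMSO (grey) and 100, 300 and 1000 nM (light to dark blue), with symbols for the library type. At 24 h the LDHB to LDHA ratio is lower in all treated libraries (0.248 to 0.315) than in DMSO (0.408 to 0.497), and the SLC2A3 to SLC2A1 ratio is higher.

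Among the kinases that steer the flow of carbon, PFKFB4 rose and PDK3 fell. PFKFB4, which makes and breaks down the activator of phosphofructokinase, measured 4.05, 5.54 and 4.21 FPKM at 1000 nM against 3.03 to 3.83 FPKM in DMSO. The change was 0.51 ± 0.11 at 100 nM, 0.52 ± 0.11 at 300 nM and 0.36 ± 0.11 at 1000 nM (log2, SE; adjusted p = 0.000566, 0.000228 and 0.0101, limma). At 1000 nM it was 0.23 and no longer called without replicate 2 (adjusted p = 0.149), and 0.63 within the first type, where that replicate stands for 1000 nM.

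PDK3, a kinase that shuts off pyruvate dehydrogenase, measured 1.50, 3.17 and 2.35 FPKM at 1000 nM, against 2.84, 3.33 and 6.90 FPKM in DMSO (lowest, median, highest). The highest DMSO value rests on 9 reads in the shallowest library. The log2 change of -0.62 ± 0.20 (SE, adjusted p = 0.0136, limma) was -0.04 within the first type, -0.39 without replicate 1 of the 1000 nM group and -0.46 without DMSO replicate 2, and in each of these the call was lost. PDK1, the best known HIF-driven kinase of this family, was at 2.48, 1.86 and 2.04 FPKM at 1000 nM, against 1.47, 1.67 and 2.78 FPKM in DMSO, and PFKFB3 was at -0.06 ± 0.14 (SE). Neither passed the test. Without DMSO replicate 2, the shallow library, PDK1 was called (0.30, adjusted p = 0.0161, limma).

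HIF1A RNA itself rose at 24 h, to 161, 129 and 176 FPKM at 1000 nM, against 80.7, 94.1 and 124 FPKM in DMSO (lowest, median, highest). The highest DMSO library is the shallow one of the second type, and no 1000 nM library lay below it. HIF1A changed on the log2 scale by 0.36 ± 0.13 at 100 nM, 0.59 ± 0.13 at 300 nM and 0.68 ± 0.13 at 1000 nM (SE; adjusted p = 0.0348, 0.000210 and 1.93e-05, limma), and 0.50 at 1000 nM within the first type. The call at 100 nM was lost without any 1 of 5 libraries, namely replicates 1, 2 and 3 of the 100 nM group and replicates 5 and 6 of DMSO (log2 0.31 to 0.37 in these fits). EGLN3, a prolyl hydroxylase that HIF itself induces, was called at all doses (0.49 ± 0.17 at 1000 nM, SE, adjusted p = 0.0200, limma). EGLN3 measured 2.08, 2.21 and 1.61 FPKM at 1000 nM against 0.281 to 1.85 FPKM in DMSO, where the lowest value rests on 1 read, and without that library the change was 0.26 and not called (adjusted p = 0.0598). The EGLN3 call was also lost without replicate 1 (0.45) or 2 (0.42) of the 1000 nM group. At 100 and 300 nM it was lost without any 1 of the 3 treated libraries (0.43 to 0.56), and at 300 nM also without DMSO replicate 2 (0.22). EGLN1, the main oxygen sensor of most cells, was at 12.4, 10.1 and 13.4 FPKM at 1000 nM, against 9.15, 10.3 and 10.9 FPKM in DMSO, and was not called (0.22 ± 0.10 SE, adjusted p = 0.0966, limma). It was called without replicate 2 of the 1000 nM group (0.33, adjusted p = 0.0190), while the first type, which holds that replicate alone, gave 0.00.

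Promoters of 5 HIF targets are shown because these genes differed in direction, as the 250 bases before the transcription start (RefSeq, GRCh38.p14, which is not the hg19 build of the deposited values). ANKRD37, CA12 and BNIP3 rose, ADM fell and CA9, the marker most often used for hypoxia, did not pass the test. Capitals mark each ACGTG or GCGTG on either strand, so CACGT and CACGC are the same cores read on the other strand, and CACGTG holds both directions in overlap.
ANKRD37, chr4:185396591-185396840, plus strand: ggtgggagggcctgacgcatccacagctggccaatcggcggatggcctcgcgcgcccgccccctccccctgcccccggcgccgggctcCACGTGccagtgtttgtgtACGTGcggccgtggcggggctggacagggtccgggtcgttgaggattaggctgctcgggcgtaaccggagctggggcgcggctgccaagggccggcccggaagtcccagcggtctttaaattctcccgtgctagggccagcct
CA12, chr15:63381847-63382096, minus strand: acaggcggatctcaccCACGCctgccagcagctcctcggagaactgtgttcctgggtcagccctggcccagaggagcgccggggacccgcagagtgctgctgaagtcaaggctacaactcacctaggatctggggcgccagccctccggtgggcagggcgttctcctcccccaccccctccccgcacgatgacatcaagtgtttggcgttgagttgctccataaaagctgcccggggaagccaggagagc
BNIP3, chr10:131981924-131982173, minus strand: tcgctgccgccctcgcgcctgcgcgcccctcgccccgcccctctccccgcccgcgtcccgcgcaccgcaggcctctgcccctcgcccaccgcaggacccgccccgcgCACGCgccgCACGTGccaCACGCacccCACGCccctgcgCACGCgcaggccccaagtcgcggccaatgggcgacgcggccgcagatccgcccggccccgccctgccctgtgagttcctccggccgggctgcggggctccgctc
CA9, chr9:35673678-35673927, plus strand: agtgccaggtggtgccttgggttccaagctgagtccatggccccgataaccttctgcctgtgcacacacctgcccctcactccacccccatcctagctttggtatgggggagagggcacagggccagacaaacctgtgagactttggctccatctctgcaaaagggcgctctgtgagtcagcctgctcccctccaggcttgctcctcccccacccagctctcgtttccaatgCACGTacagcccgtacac
ADM, chr11:10304823-10305072, plus strand: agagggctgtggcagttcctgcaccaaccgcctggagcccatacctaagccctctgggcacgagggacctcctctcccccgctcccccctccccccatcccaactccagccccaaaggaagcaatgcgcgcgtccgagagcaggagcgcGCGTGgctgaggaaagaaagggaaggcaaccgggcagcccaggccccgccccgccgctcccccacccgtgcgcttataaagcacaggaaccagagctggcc

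A core was found in each of the 5 windows. ANKRD37 holds 3 hits, the farthest 162 bases before the start, BNIP3 holds 6, and CA12, ADM and CA9 hold 1 each, that of CA9 18 bases before the start. A match of 5 letters is common: 43.2% of 35116 RefSeq promoters of this length hold at least 1, and so do 37 of the 62 promoters (59.7%) of the 34 members found in the table, 12 of which have several starts. By promoter, 9 of 19 of members called higher at 1000 nM and 24 h, 3 of 12 of those called lower and 25 of 31 of those not called held a core. By member, 8 of 11 called higher, 3 of 6 called lower and 17 of 17 not called held a core in at least 1 promoter. The counts by member take any start, and no like share over all genes stands beside them. NDRG1, SLC2A3 and BNIP3L, also called higher, had no promoter entry and are not counted.

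NDRG1, a stress- and hypoxia-induced gene linked to growth arrest, had the largest rise of all members. It measured 41.0, 52.7 and 38.7 FPKM at 1000 nM, against 8.62, 12.8 and 14.3 FPKM in DMSO (lowest, median, highest). The mean was 12.3 FPKM in DMSO, 32.4 at 100 nM, 43.4 at 300 nM and 44.1 at 1000 nM, with no overlap at any dose. NDRG1 changed on the log2 scale by 1.38 ± 0.12 at 100 nM, 1.79 ± 0.12 at 300 nM and 1.81 ± 0.12 at 1000 nM (SE; adjusted p = 6.61e-13, 2.35e-17 and 1.36e-17, limma), and 1.98 at 1000 nM within the first type.

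CA12, a carbonic anhydrase of the cell surface that helps to balance pH, rose almost as far. It measured 20.0, 18.7 and 20.4 FPKM at 1000 nM, against 5.13, 5.66 and 8.76 FPKM in DMSO (lowest, median, highest). The highest DMSO value is again that of the shallow library, and all treated libraries lay above it. The log2 change was 1.38 ± 0.09 at 100 nM, 1.59 ± 0.09 at 300 nM and 1.63 ± 0.09 at 1000 nM (SE; adjusted p = 1.23e-16, 1.34e-19 and 4.70e-20, limma), and 1.66 at 1000 nM within the first type. CA9, the related enzyme with the core next to its start, measured 1.35, 1.23 and 1.42 FPKM at 1000 nM, against 0.840, 1.30 and 1.67 FPKM in DMSO, a log2 change of 0.04 ± 0.22 (SE, adjusted p = 0.904, limma). In each library at 24 h the CA12 to CA9 ratio was 14.3 to 15.3 at 1000 nM against 3.07 to 7.08 in DMSO. CA9 rests on 5, 63 and 6 reads at 1000 nM and on 1 to 34 reads in DMSO, so the ratio is coarse in the shallow libraries.

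ANKRD37, a small ankyrin repeat gene used as a hypoxia marker, measured 3.66, 3.49 and 3.52 FPKM at 1000 nM, against 0.791, 1.49 and 1.75 FPKM in DMSO (lowest, median, highest). The 1000 nM and DMSO groups were separate. Its log2 change was 0.79 ± 0.16 at 100 nM, 0.79 ± 0.16 at 300 nM and 1.18 ± 0.16 at 1000 nM (SE; adjusted p = 0.000174, 9.90e-05 and 4.15e-08, limma), and 1.06 at 1000 nM within the first type. ANKRD37 rests on 1 read in DMSO replicate 2.

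The mitophagy receptors BNIP3 and BNIP3L, which mark mitochondria for removal, rose together. BNIP3L measured 51.3, 43.6 and 50.3 FPKM at 1000 nM, against 27.7, 30.6 and 40.3 FPKM in DMSO (lowest, median, highest), a log2 change of 0.59 ± 0.11 (SE, adjusted p = 1.40e-05, limma). BNIP3 measured 35.0, 30.5 and 37.1 FPKM at 1000 nM against 22.0 to 29.1 FPKM in DMSO, a log2 change of 0.47 ± 0.09 (SE, adjusted p = 8.36e-05, limma). Neither overlapped with DMSO at 1000 nM, and within the first type the changes were 0.51 for BNIP3L and 0.36 for BNIP3. At 100 nM BNIP3L passed (0.33 ± 0.11 SE, adjusted p = 0.0200) and BNIP3 did not (0.20 ± 0.09 SE, adjusted p = 0.128), and the BNIP3 call at 300 nM was lost without replicate 2 of that group (0.21, adjusted p = 0.146, limma). For BNIP3L at 100 nM the call was lost without replicate 2 (0.31) or 3 (0.31) of that group.

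The collagen prolyl hydroxylases and the histone demethylase KDM3A followed. P4HA2 measured 13.3, 12.6 and 13.6 FPKM at 1000 nM, against 7.54, 7.81 and 9.72 FPKM in DMSO (lowest, median, highest), with no overlap at any dose. Its log2 change was 0.39 ± 0.07 at 100 nM, 0.57 ± 0.07 at 300 nM and 0.66 ± 0.07 at 1000 nM (SE; adjusted p = 4.15e-05, 8.56e-09 and 1.36e-10, limma), and 0.65 at 1000 nM within the first type. P4HA1 changed by 0.38 ± 0.11 and KDM3A by 0.45 ± 0.12 at 1000 nM (log2, SE; adjusted p = 0.00594 and 0.00143, limma), and both groups overlapped with the shallow DMSO library. KDM3A was also called at 300 nM, but not without replicate 2 of that group (0.23, adjusted p = 0.192, limma).

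ADM, which encodes the secreted vessel-dilating peptide adrenomedullin and is a standard HIF target, went against the others. It measured 0.662, 1.41 and 0.727 FPKM at 1000 nM, against 2.02, 3.35 and 4.07 FPKM in DMSO (lowest, median, highest). The 2 lowest treated values rest on 4 and 5 reads, while replicate 2, with 118 reads, also lay below every DMSO library. The log2 change was -0.71 ± 0.16 at 100 nM, -0.92 ± 0.16 at 300 nM and -1.39 ± 0.16 at 1000 nM (SE; adjusted p = 0.000955, 1.09e-05 and 1.09e-09, limma), and -0.95 at 1000 nM within the first type (adjusted p = 0.00243). VEGFA, the vessel growth factor, was not called at 7.42, 9.12 and 7.97 FPKM at 1000 nM, against 6.49, 6.95 and 7.66 FPKM in DMSO (0.20 ± 0.14 SE, adjusted p = 0.276, limma). With terms for the library types VEGFA passed at 0.26 (adjusted p = 0.000442), and the first type alone gave 0.35 (adjusted p = 0.00143).

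**Figure D4:**
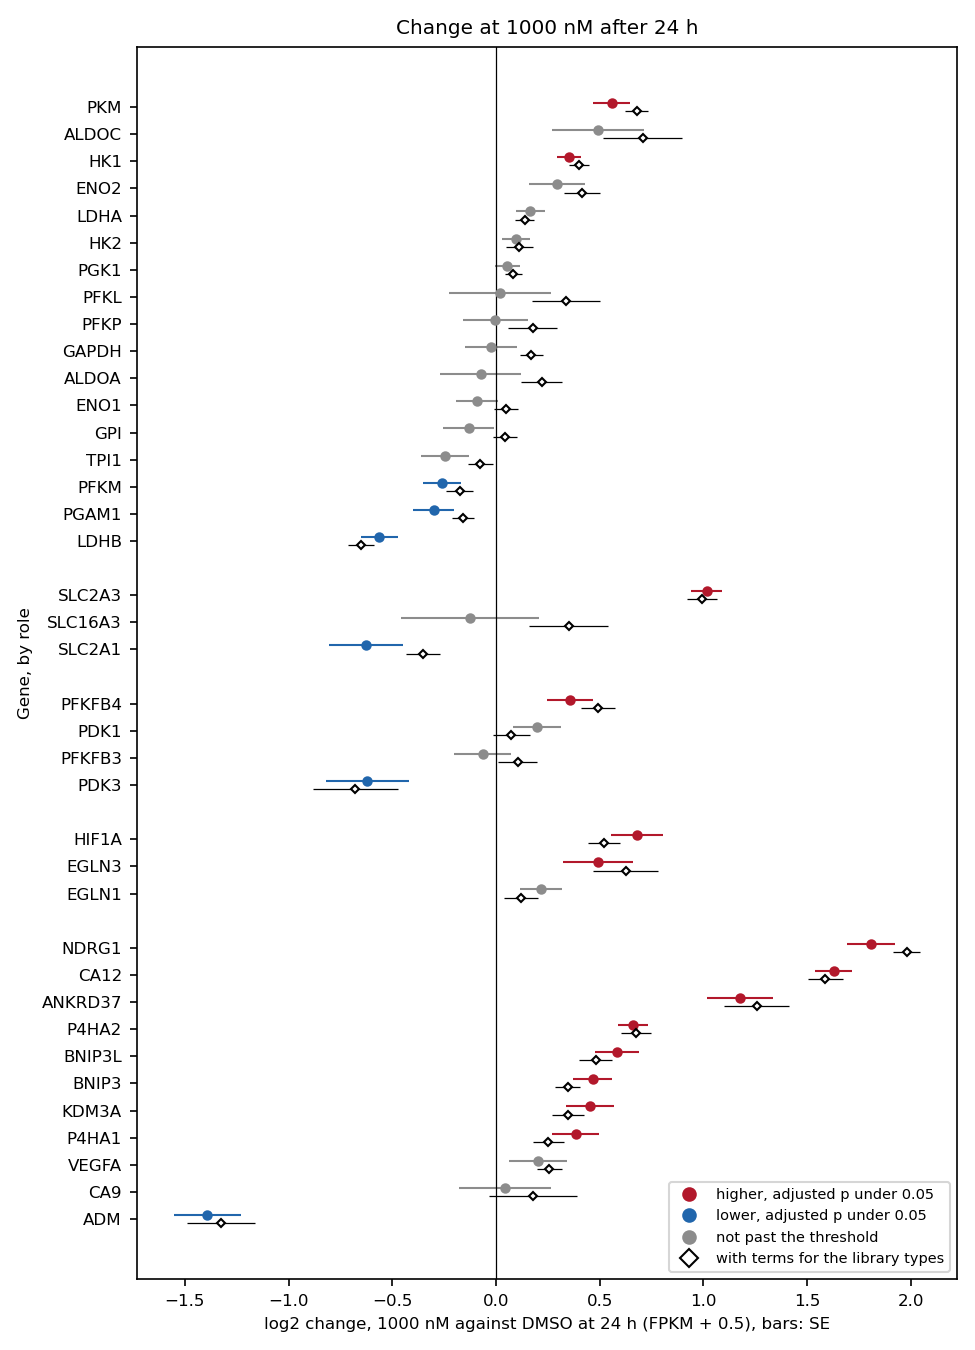
log2 change at 1000 nM against DMSO at 24 h (horizontal axis, FPKM + 0.5, bars are SE) for the 38 tested genes ordered within their roles; filled points are red where higher and blue where lower at an adjusted p under 0.05 and grey otherwise, and open diamonds give the same fit with terms for the library types. NDRG1 (1.81) and CA12 (1.63) lie farthest to the right and ADM (-1.39) farthest to the left, and most enzymes lie near 0.

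The call of 12 members at 1000 nM and 24 h held under each of 10 other settings and each of 9 left-out libraries: HK1, PKM, LDHB, SLC2A3, HIF1A, CA12, ADM, BNIP3, BNIP3L, NDRG1, ANKRD37 and P4HA2. The share of all genes whose calls held in this way was not counted, so the 12 have no background beside them. Of all genes, 34.7% were called in the fit reported and 18.8% in a fit of the 2 groups alone. Between 1000 and 100 nM at 24 h, 3 members differed (4.94% of all genes, 2.08% higher and 2.86% lower): SLC2A3 by 0.31 ± 0.09, P4HA2 by 0.27 ± 0.08 and ADM by -0.68 ± 0.19 (log2, SE; adjusted p = 0.0234, 0.0440 and 0.0219, limma). All 3 calls were lost without replicate 1 or 3 of the 1000 nM group or without replicate 1 or 2 of the 100 nM group, and that of P4HA2 also without replicate 3 of the 100 nM group (0.23 to 0.29 for P4HA2, 0.27 to 0.33 for SLC2A3 and -0.65 to -0.54 for ADM). Dose and library type are partly mixed here: 2 of the 1000 nM libraries are of the second type, while all 3 at 100 nM are of the first. With terms for the library types all 3 calls held, voom kept 1 and a fit of the 2 groups alone kept 0.

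A direct test of the difference between the 1000 nM effect at 24 h and that at 6 h called 13 members (15.1% of all genes, 8.16% upward and 6.95% downward), 11 in the upward and 2 in the downward direction. The effect on NDRG1 was larger at 24 h by 1.40 ± 0.17, that on CA12 by 1.38 ± 0.13 and that on ANKRD37 by 0.90 ± 0.23 (log2, SE; limma). HK2 differed by 0.54 ± 0.09, since its effect was -0.45 at 6 h and 0.10 at 24 h. ADM differed by -1.11 ± 0.23 and LDHB by -0.44 ± 0.13. At 6 h NDRG1 stood at 14.3, 14.3 and 14.8 FPKM at 1000 nM, against 8.96, 10.8 and 13.0 FPKM in DMSO, without overlap and short of the threshold (0.41 ± 0.12 SE, adjusted p = 0.0602, limma). In the first type alone it was called at 6 h (0.35), along with PFKFB4 (0.30), CA12 (0.23), HIF1A (0.23) and VEGFA (0.27), and 7.7% of all genes were called in that fit against 2.01% with all libraries.

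Members also changed with time in DMSO alone. Between 24 and 6 h, 13 members were called in the solvent (9.34% of all genes, 4.96% higher and 4.38% lower), 11 higher and 2 lower at 24 h. BNIP3 stood at 22.0 to 29.1 FPKM at 24 h against 16.2 to 21.0 FPKM at 6 h, a log2 change of 0.47 ± 0.08 (SE), and BNIP3L at 27.7 to 40.3 FPKM against 20.0 to 26.4 FPKM, a change of 0.42 ± 0.09. P4HA1 was higher by 0.54 ± 0.09, HIF1A by 0.38 ± 0.10, LDHA by 0.30 ± 0.06 and PGK1 by 0.19 ± 0.05. SLC2A3, PDK1, PDK3, CA12 and KDM3A were also higher (log2 change 0.25 to 0.54). HK2 was lower by -0.21 ± 0.05 and HK1 by -0.15 ± 0.05 (all SE, log2).

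The 24 h DMSO libraries also serve as the controls of the compound, so the values are only set side by side. LDHA and PGK1 were higher with time in DMSO and were not called with the compound at 24 h, LDHB was not called with time, and NDRG1 was at 8.23 to 14.3 FPKM across all 24 DMSO libraries. Within the first library type all 13 calls with time in DMSO were kept, where 26.8% of all genes were called. Without libraries under 2 M reads 9 of them were kept, where 7.66% of all genes were called. Without DMSO replicate 2 of 24 h, the calls of PDK1 (0.20), PDK3 (0.38), HIF1A (0.31), CA12 (0.15) and KDM3A (0.22) with time were lost. Those of PDK1 were also lost without replicate 4 of 24 h or replicate 1 or 2 of 6 h, of PDK3 without replicate 4 of 24 h or replicate 1, 3 or 4 of 6 h, and of KDM3A without replicate 1, 2 or 4 of 6 h, as was that of HK1 (-0.15 to -0.12) without any 1 of 7, namely replicates 1, 2, 4 and 6 of 24 h and replicates 1, 2 and 4 of 6 h. Between 6 and 1 h in DMSO the test called SLC2A3 alone (0.31 ± 0.06 SE, adjusted p = 0.00127, limma), where 2.48% of all genes were called, 1.45% higher and 1.03% lower. Time and library type are partly mixed in this comparison, since 3 libraries of 1 h and 0 of 6 h are of the third type. The SLC2A3 call held with terms for the library types. It was lost within the first type and in a fit of the 2 groups alone.

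**Figure D5:**
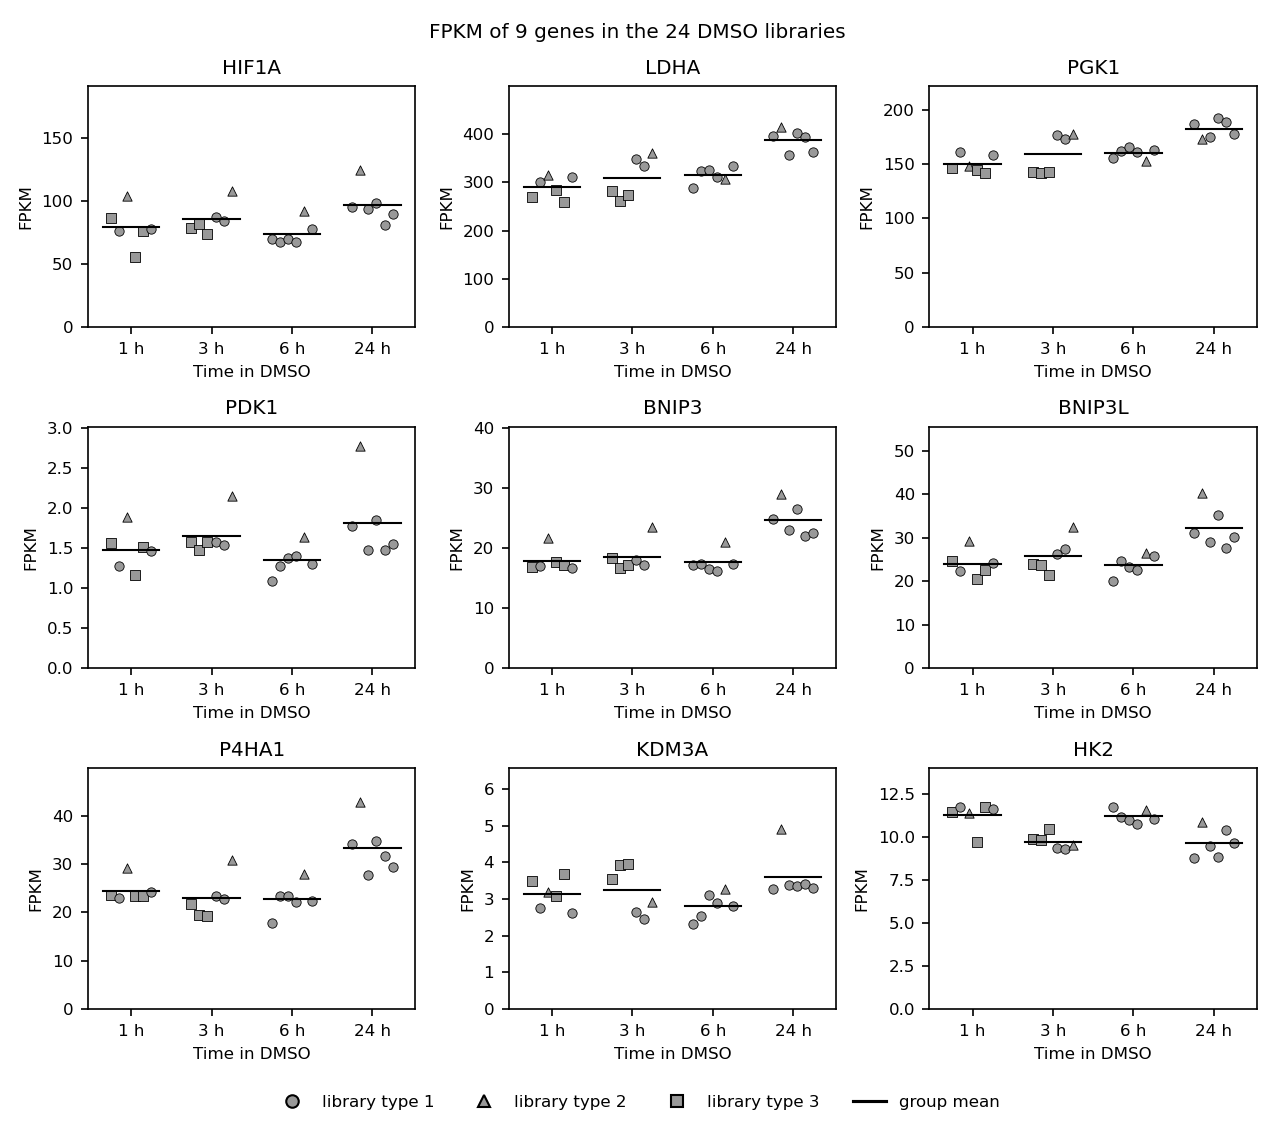
FPKM (vertical axes, from 0) of 9 genes in the 24 DMSO libraries at 1, 3, 6 and 24 h; symbols give the library type and lines the group means. BNIP3 stands at 16.2 to 21.0 FPKM at 6 h and 22.0 to 29.1 FPKM at 24 h, and the library of the second type is the highest of the 24 h group for all genes shown except PGK1.

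Further genes of the same pathways were taken from lists chosen with earlier results of these data known, and 98 of these genes were tested. After 6 h at 1000 nM 7 were called, 4 higher and 3 lower, beside 2.01% of all genes, 0.706% higher and 1.3% lower. After 24 h 38 were called, 22 higher and 16 lower, beside 34.7% of all genes, 19.1% higher and 15.6% lower. Further HIF targets held 9 rises and 5 falls among 31, with a median log2 change of 0.19. MXI1, an antagonist of MYC, rose by 1.11 ± 0.11 and the histone demethylase KDM5B by 0.80 ± 0.07, while the host gene of miR-210, MIR210HG, rose by 0.91 ± 0.28. Against them, CXCR4, a chemokine receptor, fell to 1.55 ± 0.512 FPKM at 1000 nM, against 9.13 ± 0.582 FPKM in DMSO (SD, n = 3 and 6). IGFBP3, a secreted binder of growth factors, fell to 7.19 ± 1.04 FPKM at 1000 nM, against 14.7 ± 0.531 FPKM in DMSO. MIR210HG lost its call without replicate 2 of the 1000 nM group (0.72, adjusted p = 0.0752).

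Of 12 further genes of oxygen sensing, 2 rose and 0 fell, beside 19.1% and 15.6% of all genes. EPAS1, which encodes HIF-2 alpha, rose by 0.41 ± 0.09 and ARNT, the HIF dimer partner, by 0.44 ± 0.08. VHL, which sends HIF1A to the proteasome, was at 0.25 ± 0.15 and HIF1AN, which blocks HIF activity, at 0.01 ± 0.07, neither past the threshold (log2, SE). DDIT4, a HIF target that curbs growth signalling, was at 0.45 ± 0.21 at 24 h and not called, although it was called at 6 h (0.98).

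The further lists on the fate of glucose and pyruvate stand beside the same 19.1% of all genes higher and 15.6% lower. Of 13 genes of pyruvate entry into mitochondria 1 rose and 1 fell: PDK4, a kinase that blocks pyruvate dehydrogenase, rose to 3.54 ± 1.05 FPKM at 1000 nM, against 0.556 ± 0.222 FPKM in DMSO (SD, n = 3 and 6), and PDHX was at -0.37 ± 0.12. PDHX lost its call without replicate 2 of the 1000 nM group (-0.29). Of 10 further glycolysis genes 2 rose (GCKR and BPGM) and 4 fell, among them PFKFB2 at -0.88 ± 0.09, FBP1 at -0.46 ± 0.10 and PGAM4, a near-identical copy of PGAM1, at -0.35 ± 0.14. GCKR lost its call without replicate 1 of the 1000 nM group (0.57), BPGM without replicate 1 (0.30) or 3 (0.27), and PGAM4 without either of those or DMSO replicate 1, 3, 5 or 6 (-0.35 to -0.25). Of 8 further transporters 1 rose (SLC2A14) and 2 fell, SLC37A4 at -0.67 ± 0.20 and SLC16A7 at -0.54 ± 0.14. SLC37A4 lost its call without replicate 3 of the 1000 nM group (-0.55).

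In the pentose phosphate pathway 2 of 8 rose and 2 fell, beside 19.1% and 15.6% of all genes. H6PD, which works in the endoplasmic reticulum, was at 0.77 ± 0.17, and RPIA and PGD at -0.82 ± 0.08 and -0.21 ± 0.06 (log2, SE). PGD lost its call without replicate 1 of the 1000 nM group (-0.18). Of 12 glycogen genes 4 rose and 2 fell (the same shares of all genes apply), with the phosphorylase PYGB at 0.90 ± 0.14 and PGM2 at -1.03 ± 0.08. TXNIP, a target of MondoA that restrains glucose uptake and the 1 gene of 4 called in the MondoA list, stood at 291 ± 11.5 FPKM at 1000 nM, against 163 ± 7.55 FPKM in DMSO (SD, n = 3 and 6). Its log2 change was 0.37 at 6 h and 0.83 ± 0.05 at 24 h (SE).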

How the data were processed

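RNA levels of 60 libraries in 16 groups were analysed from 1 deposited table of log2(FPKM + 1) values for 38342 gene rows. Per the submitters' processing notes the authors used STAR 2.4.2a, featureCounts 1.4.6-p2 of Subread, DESeq2 and the hg19 build. Their annotation is not given in these sources. FPKM values were computed back from the deposited log2 values, although FPKM itself had been assumed when the tests were planned. Whole reads were recovered for 100% of 1304094 values above 0, within 0.01 read. Limma 3.58.1 in R 4.3.3 was run on log2(FPKM + 0.5), with 1 mean per group, 44 residual degrees of freedom, a mean trend and robust variances, over the 15866 genes that reached 1 FPKM in 3 or more libraries. Log2 changes are on this scale, which understates those of low genes, and a call is a Benjamini-Hochberg adjusted p under 0.05. The script was tested on simulated data. The members, the pathway lists and the tests were chosen with earlier results of these data known. Named in full were the 8 highest and 8 lowest called changes at 1000 nM and 24 h, members called at 3 or 6 h at 1000 nM, and a set always named; of further lists, up to 3 called genes each way. Alternatives changed the pseudocount (0.1), the filter, the scaling, the library weights, terms for library types, the libraries used, the fit and the tool (voom on recovered reads). In all 96 replicate pairs the counts differed by more than sampling noise (1.56 to 136 chi-square per degree of freedom). Promoters came from a RefSeq table of another build and were matched by symbol. Some genes of the further lists are counted but not reported by name here.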

Additional observations from a re-analysis of the deposited data

Results flagged for a closer look

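Among the DMSO groups 27 of 156 sets of 6 libraries (1 set per gene and time) were flagged because 1 library lay far from the others. Chance gives about 1 in 20 for a single set. The genes share the same libraries, so the sets are not independent and the 27 cannot be weighed against that rate. Of the 27 flags 24 fell on libraries of the second type, of which each DMSO group holds 1. A further 2 fell on the third type and 1 on the first, and 7 of the 27 fell on DMSO replicate 2 of 24 h. That library was low for PFKM (5.95 FPKM, others 7.60 to 8.30), TPI1 (233, others 268 to 288) and EGLN3 (0.281, others 1.29 to 1.85). It was high for PDK1 (2.78), PDK3 (6.90), CA12 (8.76) and KDM3A (4.92 FPKM).

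Replicate 3 of 1 h was low for GPI (17.8 FPKM), PFKM (6.54), GAPDH (629) and PFKFB4 (2.17), and high for EGLN1 (11.9), BNIP3 (21.6) and P4HA1 (29.2 FPKM). Replicate 5 of 6 h was low for GPI (19.2), TPI1 (189), GAPDH (682), ENO1 (597) and PKM (279) and high for BNIP3 (21.0 FPKM). Replicate 6 of 3 h was high for PDK1 (2.15), BNIP3 (23.6) and P4HA1 (30.9) and low for NDRG1 (8.23 FPKM). The others were HK2 in replicate 4 of 1 h (9.71 FPKM, low), PFKM in replicate 3 of 6 h (9.18, high) and ADM in replicate 2 of 3 h (5.15, high).

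The 1000 nM effect differed between 24 and 6 h for 13 members, tested as an interaction in limma. The effect was higher at 24 h for NDRG1 (1.40), CA12 (1.38), ANKRD37 (0.90), HK2 (0.54), P4HA2 (0.53), HIF1A (0.51), SLC2A3 (0.51), BNIP3L (0.48), BNIP3 (0.47), PKM (0.42) and HK1 (0.31), and lower for ADM (-1.11) and LDHB (-0.44). PKM lost the call without replicate 1 of 1000 nM at 6 h (0.38) or replicate 2 at 24 h (0.34). BNIP3 lost it without replicate 3 of 1000 nM at 6 h (0.41) or at 24 h (0.41), and BNIP3L without either of those or replicate 1 at 24 h (0.42 to 0.45). HIF1A lost it without any 1 of 10 libraries (0.42 to 0.52), namely replicates 2 and 3 of 1000 nM at 6 h and 1 and 3 at 24 h, and DMSO replicates 5 and 6 at 6 h and 1, 3, 5 and 6 at 24 h.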

How the results depend on the processing

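No paired analysis was possible because the labels give the groups no shared replicate numbers. Of 380 values for single members at 1000 nM and 24 h under other settings, 334 stayed on their side of the threshold, 13 lost the call, 27 gained it and 6 were called with the other sign. Of the 334, 313 kept their sign and 21, of 9 uncalled genes, did not. The 6 were ALDOA within the first type (0.33) and with type terms and library weights (0.23), GAPDH with type terms (0.17), within the first type (0.20) and with type terms and weights (0.18), and SLC16A3 with type terms and weights (0.35); the cause was not tested. Of 342 values with 1 library left out, 324 stayed on their side of the threshold (308 with the same sign, 16 of 7 uncalled genes with the other), 11 lost the call and 7 gained it.

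Counts of called members moved as follows, with the share of all genes called in brackets. With library weights they were 18 at 1000 nM and 1 h (40.2%), 17, 15 and 13 at 1000, 300 and 100 nM and 3 h (24, 19.3 and 23.3%), 8, 9 and 7 at 6 h (13.6, 13.3 and 7.42%), 28 and 24 at 300 and 100 nM and 24 h (52.5 and 40.3%), 25 for 1000 against 100 nM (44.3%), 25 for the effect at 24 against 6 h (43.7%) and 9 for DMSO at 6 against 1 h (11.6%). With type terms they were 5, 5 and 4 at 1000, 300 and 100 nM and 6 h (4.65, 4.68 and 2.17%), 25 at 300 nM and 24 h (44.6%), 7 for 1000 against 100 nM (7.92%) and 3 for DMSO at 6 against 1 h (5.55%), and 59 further pathway genes at 1000 nM and 24 h (47.5%). With type terms and weights, chosen after seeing the data, they were 3 at 300 nM and 1 h (3.83%), 10, 16 and 8 at 6 h (15.5, 16.6 and 8.11%), 30 and 24 at 300 and 100 nM and 24 h (57.2 and 40.9%), 12 for 1000 against 100 nM (22.6%), 23 for 24 against 6 h (39.1%), 21 for DMSO at 24 against 6 h (24.6%) and 7 at 6 against 1 h (14%), and 69 further genes (54.2%). Within the first type they were 7, 5 and 4 at 6 h (7.7, 4.83 and 3.37%), 25 and 23 at 300 and 100 nM and 24 h (42.8 and 35.7%) and 5 for 1000 against 100 nM (5.2%). Fits of the compared groups alone gave 1 and 0 at 300 and 100 nM and 6 h (0.466 and 0.309%), 12 and 8 at 1000 and 100 nM and 24 h (18.8 and 12.4%), 0 for 1000 against 100 nM (0.0189%), 4 for DMSO at 24 against 6 h (2.33%) and 0 at 6 against 1 h (0.46%). Voom gave 5 at 1000 nM and 6 h (2.88%) and 3 for DMSO at 6 against 1 h (5.04%). Without libraries under 2 M reads there were 4, 5 and 2 for 1000 nM at 6 h, 1000 against 100 nM and DMSO at 6 against 1 h (2.91, 9.36 and 3.91%).

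With 1 library left out, the counts were 0 to 0 at 1 and 3 h, 2 to 3, 2 to 3 and 1 to 2 at 1000, 300 and 100 nM and 6 h, 16 to 21, 14 to 18 and 9 to 13 at 24 h, 0 to 9 for 1000 against 100 nM, 10 to 14 for 24 against 6 h, 7 to 14 for DMSO at 24 against 6 h and 1 to 2 at 6 against 1 h, and 33 to 43 further genes. The share of all genes called in these fits with 1 library left out was not counted, so the ranges have no background beside them. At 300 nM and 24 h voom called 2508 of all genes higher and 3747 lower, against 2617 and 2247 in the fit reported. Depth limits CA9, ANKRD37, ALDOC and EGLN3 (1 read in the poorest library), PDK3 (3) and ADM (4).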
